A study of Rattus norvegicus with 6 samples.

Results

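Carriers of the Slc25 family, the proteins that move metabolites across the inner membrane of mitochondria, were examined in heart primordia of rat embryos around the first heartbeats. Members were taken as the genes whose array symbol begins with Slc25a followed by a number, and each was represented by its brightest probe. This gave 41 of the 19297 gene symbols on the array, measured by 56 probes. The rule used no measured difference between the groups.

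Wistar rat embryos on embryonic day 10 (E10) supplied both groups, and no transgene, allele or treatment is given for either. The pre-heartbeat group held primordia with a flat centre, taken before contraction began, and the post-heartbeat group held primordia with a raised centre, taken after it began. Each group had 3 samples, given as biological replicates, with 1 array per sample. Heart primordia were isolated without parting the first from the second heart field, so cells of both fields were in a sample, and in such bulk tissue fewer cells of a type and less RNA per cell cannot be told apart.

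Carriers of this family share a fold of tandem repeats and exchange one small molecule for another, usually between the cytosol and the mitochondrial matrix. They let ADP and phosphate in and ATP out, pass the reducing equivalents of cytosolic NADH inward through the malate-aspartate shuttle, and supply the matrix with acylcarnitine, amino acids, nucleotides, cofactors and iron. Heart muscle is rich in several of them, in particular the muscle form of the ADP/ATP carrier, Slc25a4. The comparison asked whether the expression of these genes differed between the groups at the time when the heart primordium begins to contract.

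Every value below is a log2 signal of a probe less the 75th percentile of its array, so that 0 is the level of that percentile and a step of 1 is a doubling. Probes are oligonucleotides of 60 bases that differ in how well they bind, so signals of different probes are not compared as amounts of RNA. The first 30 bases of the probes of 6 members are shown, because the results turn on these genes, with G and C in capitals to show the base composition, which over all 60 bases ranged from 25% in Slc25a33 to 45% in Slc25a5 and Slc25a12. Coordinates come from the annotation of the array, which uses the rn4 build.
Slc25a12 (chr3:53557316-53557375, minus strand): CCaaCGaatCaCGtttataGaCatGtaaCG
Slc25a33 (chr5:166836558-166836617, minus strand): tttaaCttaaGaGGattGaGGattaaGCaG
Slc25a35 (chr10:55731310-55731369, plus strand): CCaGGtGtCCtCttaGattCGaaGCCaCaG
Slc25a30 (chr15:56656201-56656260, minus strand): CtCtCCtGGtCCtGGtGaCCaaaaGCCttt
Slc25a4 (chr16:49357074-49357133, plus strand): CCaGaCCataaGGaataCCtCaGaaaaatG
Slc25a5 (chrX:8073675-8073734, minus strand): ttaatGtGtCaGtGCaGGGCattatCatCt

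Of the 41 members, 34 were well above background on all 6 arrays, and these were the members tested. The other 7 were Slc25a15, Slc25a18, Slc25a27, Slc25a34, Slc25a41, Slc25a45 and Slc25a47. Of them, Slc25a34, Slc25a41, Slc25a45 and Slc25a47 were well above background on 0 arrays, Slc25a15 and Slc25a27 on 1, and Slc25a18 on 3. Slc25a41 belongs to the carriers of ATP-magnesium and phosphate, Slc25a15 carries ornithine in the urea cycle, Slc25a18 carries glutamate, and Slc25a27 is a relative of the uncoupling proteins known from the brain. No member passed the filter through 1 group alone.

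None of the 34 carriers was called higher or lower in the post-heartbeat group with limma at an adjusted p under 0.05 (0 and 0), against 0.166% of all 12685 genes tested called higher and 0.0315% called lower. With the slide that carried the arrays as a block, again 0 members were called, against 1.41% of all genes called higher and 0.512% called lower. The study selected genes that were higher by at least 1.5 fold with p under 0.05 before adjustment. These thresholds were met by 0 members in that direction, against 2.34% of all genes, and by 0 members in the lower direction, which was added here, against 1.22%. At an unadjusted p under 0.05, limma named 1 of the 34 members (Slc25a35), against 8.03% of all genes. It named 2 in the fit with the slide block, against 10.9%, and the comparison used for the study's thresholds named 2, against 8.07%.

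Differences between the groups ranged from -0.55 in Slc25a35 to 0.52 in Slc25a42. Their median was 0.0054, with 18 of 34 members on the positive side (52.9%), against a median of -0.022 and 46.4% positive over all genes tested. The median size of a difference, whatever its sign, was 0.13 in the members and 0.16 in all genes, and 0 of 34 members reached 1.5 fold, which 956 of all genes (7.54%) did. In 22 of the 34 members the difference was smaller than its own standard error. For 32 members the 95% interval of the difference lay within 1 log2 unit of 0, so a doubling or halving was outside it, and for 20 members it lay within 1.5 fold. The exceptions to the wider limit were Slc25a22 and Slc25a42, whose intervals ran up to 1.22 and 1.47.

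**Figure D1:**
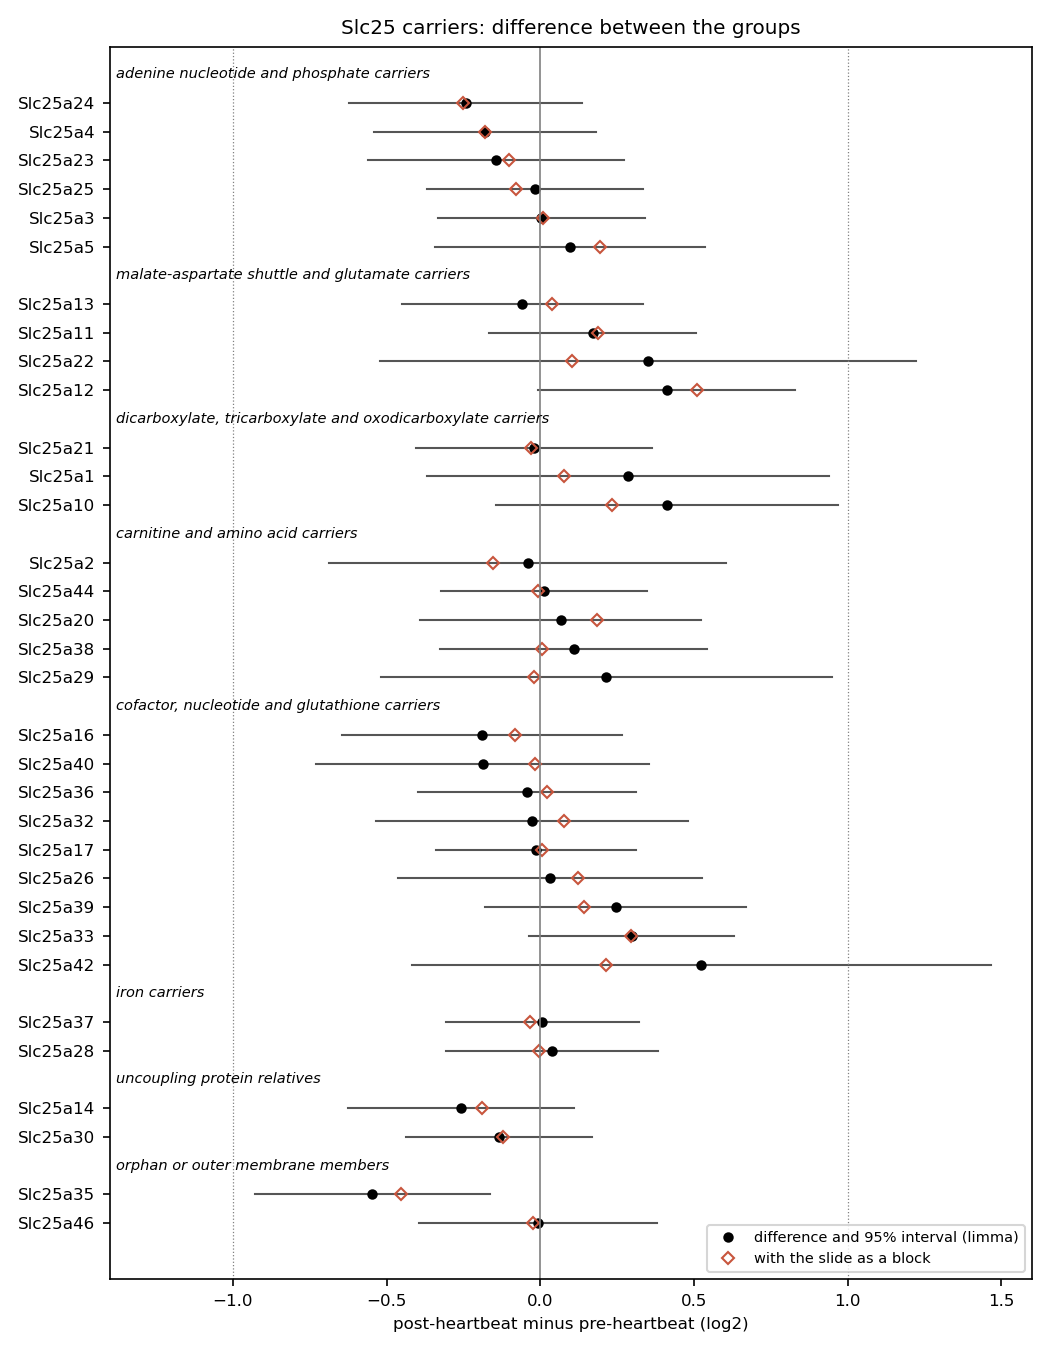
Difference in log2 signal between the post-heartbeat and the pre-heartbeat group for 33 of the 34 tested Slc25 carriers, grouped by what they carry. Black points are the limma estimates with 95% intervals (n = 3 arrays per group), open diamonds the estimates with the slide as a block, and dotted lines mark 1 log2 unit. Only the interval of Slc25a35, from -0.93 to -0.16, leaves out 0, and its adjusted p was 0.38.

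Groups did not overlap in 4 members, named here after their values were seen. Slc25a12 and Slc25a33 were higher on every post-heartbeat array than on every pre-heartbeat array, and Slc25a30 and Slc25a35 were lower. Over all genes, 6.31% did not overlap with the post-heartbeat group higher and 6.95% with it lower, and the 2 and 2 of 34 members lie near these shares. With 3 arrays against 3, the exact two-sided permutation test cannot give a p below 0.1, which is the p of each of these 4 members.

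Slc25a35, a carrier whose substrate is not settled, had the lowest limma p among the members. Before the heartbeat its level was -3.87, -3.48 and -3.54, and after it -4.21, -4.27 and -4.04. The highest post-heartbeat value thus lay 0.17 below the lowest pre-heartbeat value. The difference was -0.55 (limma, SE 0.16, adjusted p = 0.38), or 1.46-fold lower, and -0.45 with the slide as a block (adjusted p = 0.20). Within slide 1 it was -0.37 and within slide 2 it was -0.53.

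Slc25a12, also called aralar, exchanges aspartate for glutamate in the malate-aspartate shuttle and is the form typical of heart, muscle and brain. Its level was -1.16, -0.96 and -1.0 before and -0.90, -0.64 and -0.35 after the heartbeat began. All post-heartbeat arrays were higher, the nearest values of the groups being 0.06 apart. The difference was 0.41 (limma, SE 0.18, adjusted p = 0.73) and 0.51 with the slide as a block (adjusted p = 0.19), the lowest adjusted p among the members in that fit, with 0.39 within slide 1 and 0.63 within slide 2. A further probe of the gene was not well above background and gave no second measurement. Slc25a13, or citrin, which does the same exchange and is typical of liver, had values of 0.07 to 0.46 before and 0.10 to 0.39 after, a difference of -0.06 (SE 0.17). The log2 ratio of Slc25a12 to Slc25a13 within an array was -1.43 to -1.23 before and -1.01 to -0.74 after. That ratio differed by 0.47 between the groups without overlap (exact permutation p = 0.1, the smallest possible, and 0.35 after Benjamini-Hochberg adjustment over the 7 paralog pairs compared).

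Slc25a33, a carrier of pyrimidine nucleotides, had levels of -1.25, -1.35 and -1.39 before and -1.20, -0.93 and -0.96 after. The difference was 0.30 (limma, SE 0.14, adjusted p = 0.81) and 0.29 with the slide as a block (adjusted p = 0.61). Its second probe, on which the groups did not overlap either, gave 0.39 (limma, adjusted p = 0.79) and, with the slide as a block, 0.52 (adjusted p = 0.12). Both probes thus lay on the same side, without passing the threshold. The other pyrimidine nucleotide carrier, Slc25a36, differed by -0.04 (SE 0.15), and the ratio of Slc25a33 to Slc25a36 overlapped between the groups (difference 0.34, exact permutation p = 0.2, adjusted 0.35).

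Slc25a30, a relative of the uncoupling proteins, was at -1.50, -1.39 and -1.50 before and -1.67, -1.54 and -1.58 after. Its groups were kept apart by 0.04 in a narrow spread, and the difference was -0.13 (limma, SE 0.13, adjusted p = 0.86). Slc25a14, the other such relative tested under an Slc25a symbol, differed by -0.26 (SE 0.16) with overlapping groups. Ucp2, an uncoupling protein outside the rule, lay on the positive side and is given with the other transporters.

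**Figure D2:**
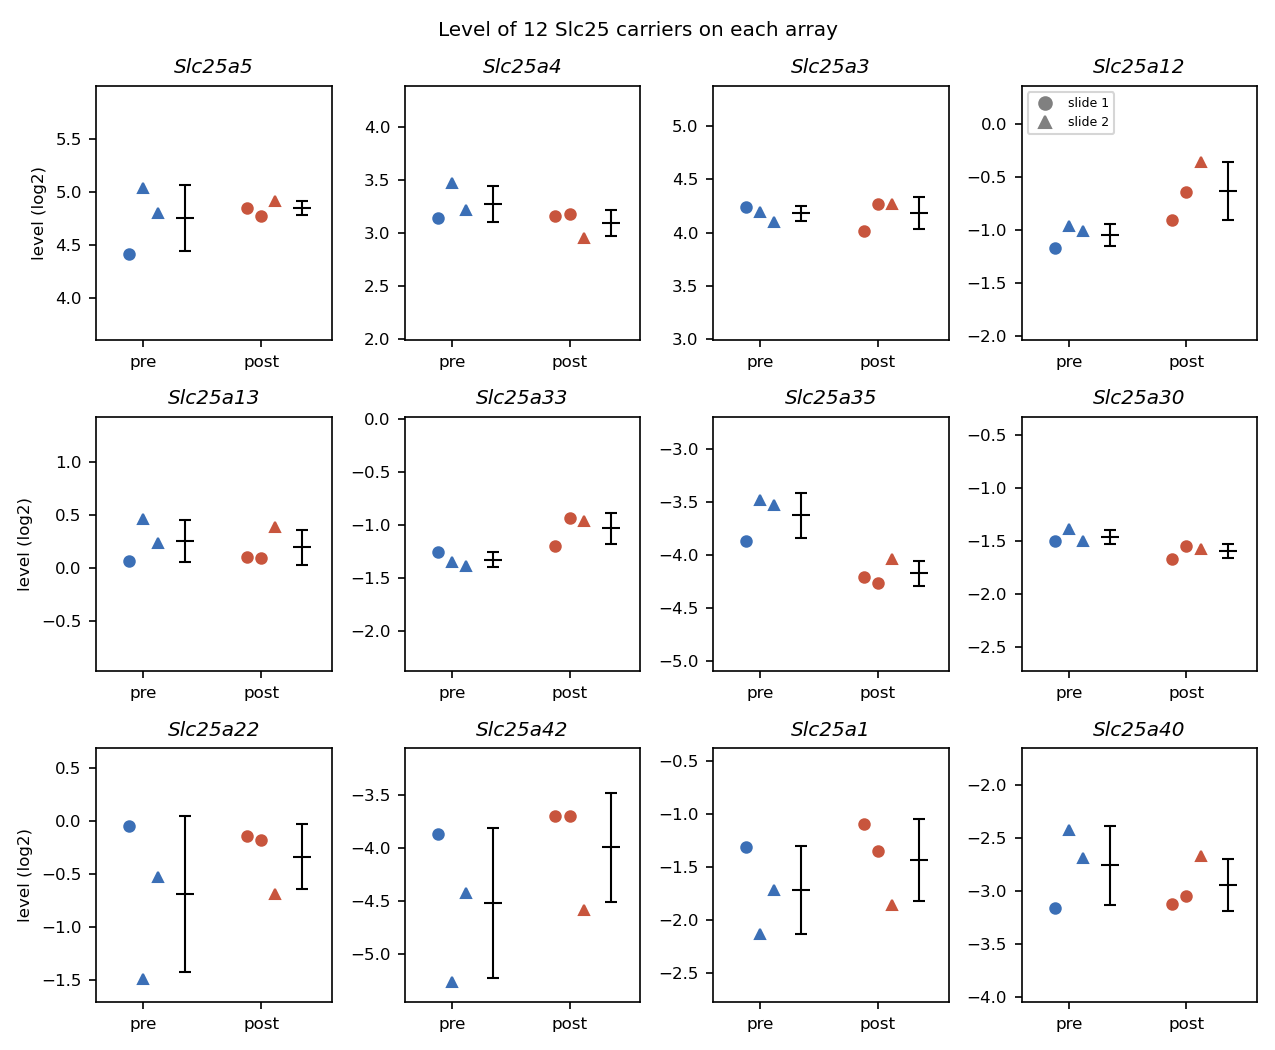
Level of 12 Slc25 carriers on each array, as log2 signal less the 75th percentile of the array, with axes of the same length in every panel. Circles are arrays of slide 1 and triangles arrays of slide 2, and bars give the mean and SD of 3 arrays. Groups part in Slc25a12, Slc25a33, Slc25a35 and Slc25a30, while in Slc25a42, Slc25a1, Slc25a40, Slc25a22 and Slc25a13 the arrays part by slide.

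Adenine nucleotide and phosphate carriers feed the ATP synthase with its substrates. Slc25a4, the ADP/ATP carrier of heart and skeletal muscle, was at 3.15, 3.47 and 3.22 before and 3.16, 3.18 and 2.96 after. Slc25a5, the form of growing cells, was at 4.42, 5.04 and 4.80 before and 4.85, 4.78 and 4.91 after. The groups overlapped in both genes. Slc25a4 differed by -0.18 (limma, 95% interval -0.54 to 0.18, adjusted p = 0.86) and Slc25a5 by 0.10 (95% interval -0.34 to 0.53, adjusted p = 0.89). Slc25a3, the phosphate carrier, stood at 4.24, 4.19 and 4.10 before and 4.01, 4.27 and 4.27 after, a difference of 0.0036 (95% interval -0.33 to 0.34).

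The log2 ratio of Slc25a4 to Slc25a5 was -1.58 to -1.27 before and -1.95 to -1.59 after the heartbeat began. It was lower in the post-heartbeat group by 0.27 without overlap (difference -0.27, exact permutation p = 0.1, adjusted 0.35). Against the second probe of Slc25a5, which itself differed by -0.01, the ratio differed by -0.17 with overlapping groups (exact permutation p = 0.6), so this separation depended on the probe. The difference of Slc25a4 itself was 0.02 within slide 1 and -0.39 within slide 2. All 10 listed cardiac muscle markers had positive differences, with a median of 0.70. Myl2, the ventricular myosin light chain, rose by 3.46 (limma, adjusted p = 0.0046). Among the carriers of ATP-magnesium and phosphate, which adjust the adenine nucleotide pool of the matrix, Slc25a24 differed by -0.24, Slc25a23 by -0.14 and Slc25a25 by -0.02, and all 3 overlapped between the groups.

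Carriers that work beside Slc25a12 in the malate-aspartate shuttle and in glutamate transport gave 3 positive estimates out of 4 with it. Slc25a11, which exchanges oxoglutarate for malate, was at 2.01, 2.31 and 2.18 before and 2.41, 2.35 and 2.26 after, a difference of 0.17 (limma, SE 0.14, adjusted p = 0.86). Slc25a22, a glutamate carrier, was at -0.05, -1.49 and -0.53 before and -0.14, -0.18 and -0.69 after. The pre-heartbeat values of Slc25a22 spread over 1.45 log2 units and enclosed all the post-heartbeat values. Its difference of 0.35 (SE 0.37) was smaller than its error. The arrays parted by slide in this gene, and with the slide as a block the difference was 0.10. The list of shuttle enzymes (malate dehydrogenases, aspartate transaminases and glycerol phosphate dehydrogenases) held 0 of 7 genes called in either direction, 4 of them positive with a median of 0.024. Gpd2, the mitochondrial glycerol phosphate dehydrogenase, was below in all post-heartbeat arrays, with a difference of -0.34 (limma, adjusted p = 0.83). Such a separation downward was seen in 6.95% of all genes.

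Among carriers of organic acids, Slc25a10 (dicarboxylates) was at -1.03, -1.58 and -1.32 before and -0.67, -0.71 and -1.33 after. Slc25a1, which exports citrate for lipid synthesis, was at -1.3, -2.13 and -1.71 before and -1.09, -1.35 and -1.86 after. The groups overlapped in both genes. The differences were 0.41 (limma, SE 0.24, adjusted p = 0.86) and 0.29 (SE 0.28, adjusted p = 0.86), and with the slide as a block they came to 0.23 and 0.08. Slc25a21, the oxodicarboxylate carrier, differed by -0.02.

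Carnitine and amino acid carriers had 5 tested members. Slc25a20, which brings acylcarnitines in for fatty acid oxidation, was at 0.27, 0.86 and 0.72 before and 0.52, 0.71 and 0.82 after, a difference of 0.07 (SE 0.19). Slc25a38, the glycine carrier of heme synthesis, differed by 0.11, Slc25a29 (basic amino acids) by 0.22, Slc25a44 (branched-chain amino acids) by 0.01 and Slc25a2 (ornithine) by -0.04. With the slide as a block the estimate was 0.0053 for Slc25a38, -0.02 for Slc25a29 and -0.0058 for Slc25a44, so 2 of the 5 were positive with a median of -0.0058, against 4 of 5 and 0.07 without it. None of these 5 had groups that did not overlap.

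Carriers of cofactors, nucleotides and glutathione split into 5 positive and 5 negative, and into 8 and 2 with the slide as a block. Slc25a42, which carries coenzyme A, was at -3.87, -5.26 and -4.42 before and -3.70, -3.70 and -4.58 after, a difference of 0.52 (limma, SE 0.40, adjusted p = 0.86). Its groups overlapped. The estimate, the highest of all members over the 6 arrays, was 0.21 with the slide as a block and 0.17 after normexp background correction. It ran from 0.15 without pre-heartbeat replicate 2, below the 0.45 of Slc25a12 on the same arrays, to 0.85 without pre-heartbeat replicate 1. Slc25a16, also tied to coenzyme A, was measured by 3 probes that gave -0.19, -0.18 and -0.24. Slc25a39 and Slc25a40, which import glutathione, lay on opposite sides at 0.25 (SE 0.18) and -0.19 (SE 0.23), and their second probes gave 0.27 and -0.46. For Slc25a40 the value was -0.02 both with the slide as a block and without pre-heartbeat replicate 2, and -0.39 without pre-heartbeat replicate 1. Neither gene passed the threshold, and their ratio overlapped between the groups (difference 0.43, exact permutation p = 0.3, adjusted 0.42).

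Slc25a26 (S-adenosylmethionine) differed by 0.03, Slc25a32 (folate) by -0.03 and Slc25a17, a peroxisomal member of the family, by -0.01. The last of these had one of the narrowest spreads, from 1.68 to 1.93 over the 6 arrays.

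Mitoferrins, the iron carriers of heme and iron-sulfur cluster synthesis, had some of the smallest differences on their brightest probes. Slc25a37, the form of red cell precursors, was at -3.41, -3.58 and -3.46 before and -3.46, -3.40 and -3.57 after, a difference of 0.0072 (95% interval -0.31 to 0.32). Slc25a28, the form of other tissues, differed by 0.04 (95% interval -0.31 to 0.38), and the ratio of the 2 genes differed by 0.03 between the groups. The second probe of Slc25a28 gave 0.20 (limma, SE 0.23) with overlapping groups. Erythroid markers gave a median difference of 0.37 over 6 tested genes of which 4 were positive, and Hbb, a beta globin, met the study's thresholds as higher at 1.22 (limma, adjusted p = 0.36). Slc25a46, a member of the outer membrane with a part in mitochondrial dynamics, differed by -0.0068 (SE 0.16).

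Levels of some carriers differed between the 2 slides. On slide 1 lay pre-heartbeat replicate 1 with the post-heartbeat replicates 1 and 2, and the other arrays lay on slide 2. In the fit with group and slide together, 4 members were higher on slide 1 (Slc25a1, Slc25a10, Slc25a29 and Slc25a42) and 1 was lower (Slc25a40) at an adjusted p under 0.05. These 5 of 34 (14.7%) lay near the 13.0% of all genes called between the slides, of which 7.47% were higher and 5.55% lower on slide 1. Between the groups the same fit called 1.92% of all genes and 0 carriers, so calls were more frequent between slides than between groups in all genes as well. Slc25a42 had the largest such difference, 0.93 (limma, adjusted p = 0.030), and Slc25a40 was lower on slide 1 by 0.51 (difference -0.51, adjusted p = 0.048).

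Pre-heartbeat replicate 2 was at an end of the range in most members, lowest of the 6 arrays in 11 and highest in 15 of the 34. The same count over all genes is not given here, so this is not shown to be particular to the carriers. Across the 34 members, which share the same arrays, the correlation of GC content with the difference between pre-heartbeat replicates 2 and 1 was 0.10 (Pearson) and -0.02 (Spearman). With the difference between the groups it was 0.11 (Pearson) and 0.26 (Spearman), against 0.14 and 0.16 over all 19299 tested probes. Within both slides the sign of the group difference was the same in 16 of 34 members, 10 of them positive and 6 negative.

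**Figure D3:**
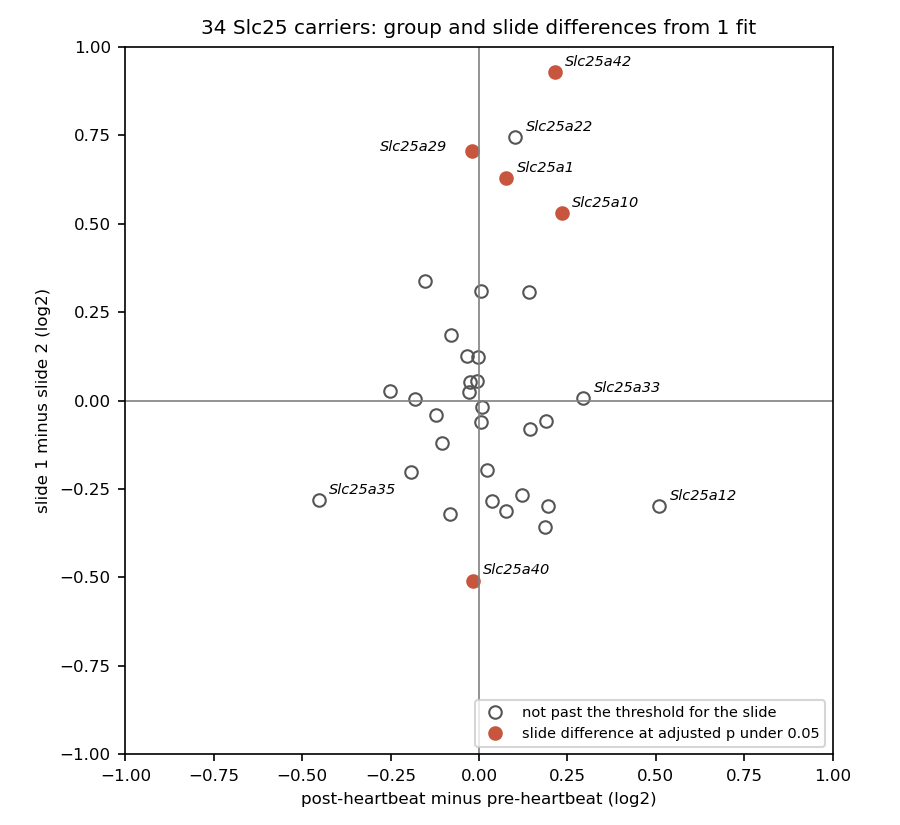
Difference between the groups (horizontal axis, post-heartbeat minus pre-heartbeat, log2) and between the slides (vertical axis, slide 1 minus slide 2, log2) for the 34 tested Slc25 carriers, both from the same fit. Filled points passed the threshold for the slide, and the spread along the slide axis, from -0.51 to 0.93, exceeds that along the group axis, from -0.45 to 0.51.

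Other transporters of the mitochondrial membranes and the machinery that inserts carriers were described from lists. Of 30 transporters outside the Slc25a symbols (uncoupling proteins, pyruvate carriers, porins, calcium uniporter subunits, sideroflexins and ABC transporters), 27 were tested, 0 were called in either direction, and 17 were positive (63.0%) with a median of 0.06. With the slide as a block, 0 were called and 21 were positive (77.8%) with a median of 0.08. Over all genes tested, 46.4% were positive without the block and 47.4% with it. Ucp2, an uncoupling protein, had the highest difference at 0.62 (limma, adjusted p = 0.84) with overlapping groups. Without overlap, Abcb6 (0.38), Tspo (0.35) and Mpc1 (0.20), a subunit of the pyruvate carrier, were above. Sfxn1 (-0.35), a serine transporter, and Sfxn5 (-0.10) were below. These are 3 and 2 of 27 genes, named after their values were seen, against 6.31% and 6.95% of all genes. Import factors (Tom and small Tim subunits, Timm22, Timm29 and Agk) gave 15 tested genes, 0 called, 5 positive and a median of -0.02. With the slide as a block, 8 of them were positive and the median was 0.0052. The 10 cardiac muscle markers ran from 0.28 to 3.46, with 1 called by limma, 4 with the slide as a block and 5 past the study's thresholds as higher.

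**Figure D4:**
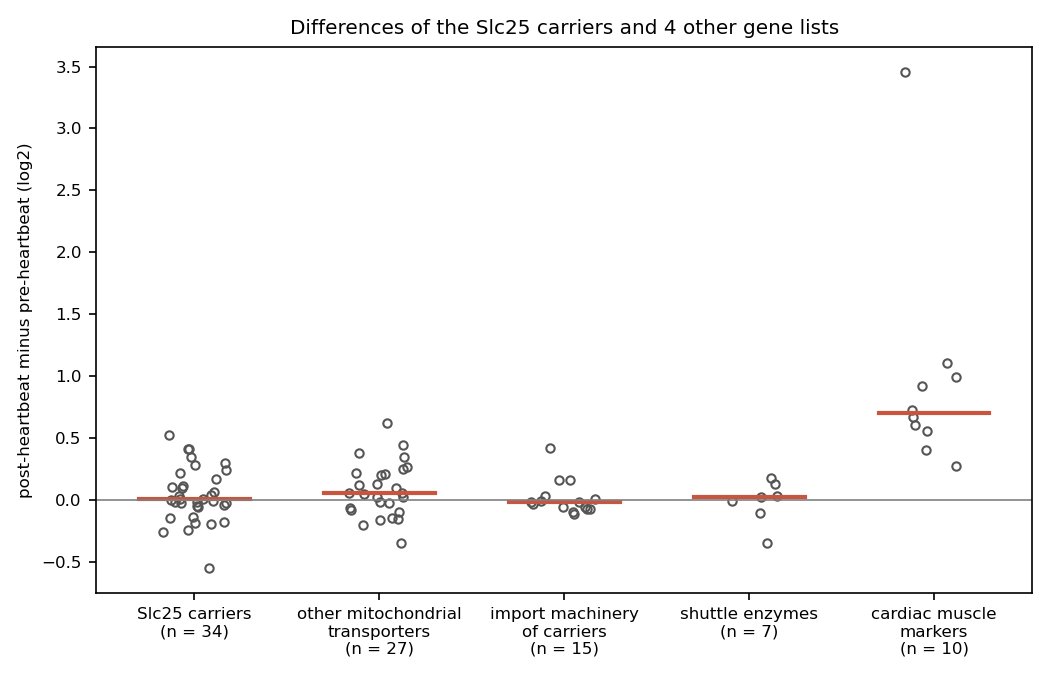
Difference in log2 signal between the groups (post-heartbeat minus pre-heartbeat), with 1 point per gene. Genes are the tested carriers with an Slc25a symbol and the tested genes of 4 lists, with the median of each as a bar. The 34 carriers lie between -0.55 and 0.52 around a median of 0.0054, and the 10 cardiac muscle markers lie above 0.

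Summed signals of some marker lists kept the groups apart. The summed linear signal of 10 cardiac muscle markers, in units of the 75th percentile, was 372 to 630 on the pre-heartbeat and 690 to 832 on the post-heartbeat arrays. For 9 yolk sac endoderm markers it was 51.7 to 55.0 against 33.0 to 44.0, for 10 endothelial markers 19.2 to 19.96 against 14.1 to 15.4, and for 3 neural ectoderm markers 6.36 to 7.35 against 2.46 to 3.02. For 6 erythroid markers the ranges overlapped, at 2.20 to 4.12 against 3.37 to 5.89. The mean log2 level, in which every marker counts alike, overlapped for yolk sac endoderm, at 1.11, -0.10 and 0.67 before against 0.66, 0.63 and -0.22 after. It overlapped as well for neural ectoderm, at -0.37, -1.61 and -0.90 before against -1.05, -1.60 and -1.57 after. Differences were positive in 2 of 9 yolk sac, 1 of 3 neural and 1 of 10 endothelial markers, with medians of -0.23, -0.21 and -0.16. With the slide as a block they were positive in 0 of 9, 1 of 3 and 4 of 10, with medians of -0.53, -0.50 and -0.14. By single genes, 0 of 9 yolk sac, 0 of 10 endothelial and 0 of 6 erythroid markers were called, and 1 of 3 neural markers, Otx2, was called lower. Hbe1, Gata1 and Slc4a1 among erythroid and Pax6, Six3, Rax, Hes5, Olig2 and Zic1 among neural markers did not pass the filter. The part of these cell types in the levels of the carriers was not tested.

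Promoters were read from RefSeq (GRCr8) for the members to see which letters they share, a feature the rule did not use. Of the 41 members, 34 had an entry, and the 250 bases before the start were searched on both strands. A CCAAT box, spelled CCAAT, was present in 20 of 34 (58.8%), against 34.3% of 27457 promoters of the table, and the ETS motif CCGGAAG in 5 (14.7%, against 7.74%). TATAA was present in 3 (8.82%, against 24.1%). The ERR motif AAGGTCA was present in 1 (2.94%, against 3.77%), the E-box CACGTG in 2 (5.88%, against 5.79%), and the NRF-1 motif, in its palindromic form, in 0 (against 4.17%). The median GC content of the window was 59.2% in the members and 52.0% in all. Those of Slc25a4 and Slc25a5 are shown because these paralogs held 2 of the 3 TATAA matches, which begin 26 and 61 bases before the start, the remaining match being in Slc25a38 at 228 bases. Capitals mark CCAAT and TATAA, and a match is a description of the letters.
Slc25a4 (chr16:52805271-52805520, plus strand): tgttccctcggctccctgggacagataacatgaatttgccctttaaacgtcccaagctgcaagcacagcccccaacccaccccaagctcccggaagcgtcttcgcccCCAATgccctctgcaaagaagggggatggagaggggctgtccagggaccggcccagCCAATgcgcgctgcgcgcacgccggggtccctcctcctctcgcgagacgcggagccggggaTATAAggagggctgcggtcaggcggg
Slc25a5 (chrX:120897366-120897615, plus strand): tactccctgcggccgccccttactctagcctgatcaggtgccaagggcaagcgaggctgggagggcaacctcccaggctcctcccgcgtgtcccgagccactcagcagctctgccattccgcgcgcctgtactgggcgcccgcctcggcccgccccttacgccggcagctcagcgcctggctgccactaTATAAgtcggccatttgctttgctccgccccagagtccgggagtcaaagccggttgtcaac

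Genes now named Slc25a whose array symbol does not follow the rule were read separately, and the uncoupling proteins stayed in the list of other transporters. Mcart1, now Slc25a51 and the carrier of NAD, was at 0.88, 0.95 and 0.82 before and 0.58, 0.67 and 0.83 after, a difference of -0.19 (limma, SE 0.14). Mcart1l, now Slc25a53, differed by -0.25 (SE 0.22), and the probe now assigned to Slc25a54 was not tested. No probe was matched here to Slc25a6, Slc25a31, Slc25a43, Slc25a48 or Slc25a52, so the testis form of the ADP/ATP carrier was not analysed.

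The 75th percentile of an array ran from 1143 to 1694 in units of intensity, 39375 to 41327 spots per array were well above background, 34 to 36 of the 41 members were so on each array, and 0 spots were saturated.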

How the data were processed

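Total RNA of heart primordia was labelled with cyanine 3 and hybridized to 1-color Agilent rat arrays by the authors, who scanned and quantified them (Feature Extraction 10.7.3.1). Each spot's intensity, as the authors deposited it, had the background taken off and no scaling across arrays. Flags for background, saturation and outliers were given per the file headers. Ratios to a baseline, deposited by the authors as a series table, served as an alternative.

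Control and outlier spots were left out. The log2 signals less the 75th percentile of each array were averaged over the spots of a probe. A probe was tested if 0.5 or more of its spots exceeded background clearly (the scanner's flag) on each of the 3 arrays in 1 group or more, which left 19299 of 30367 probes and 12685 of 19297 genes. Groups were compared with limma 3.58.1 in R 4.3.3 (linear model and empirical Bayes, Benjamini-Hochberg adjustment over all tested probes, threshold 0.05), after a test on simulated data. The study's thresholds, stated for higher genes, were applied in both directions with the pooled comparison to which Tukey's test reduces for a pair of groups. Single values were compared by exact two-sided permutation over 20 assignments. The number of arrays limits the precision.

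Named carriers were those past a threshold, those past the study's thresholds, the 10 largest differences, the 5 with the highest signal, and paralog pairs. The members and all lists were chosen with earlier results of these data known. All 41 members matched a current RefSeq gene, and 1 tested member enters the counts but is not reported here by name. Alternatives were another background correction, normalization, filter, test, probe summary or block, the ratios, and leaving out each array.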

Additional observations from a re-analysis of the deposited data

How the results depend on the processing

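The number of carriers called higher and the number called lower stayed at 0 under all 17 alternatives, in which the lowest adjusted p on the brightest probe of any carrier was 0.19 (Slc25a12, slide as a block). The second probe of Slc25a33 had 0.12 in that fit. The study's thresholds, taken in both directions, were met by 0 or 1 carriers when 1 array was left out. The 1 was Slc25a35, in the lower direction added here, without pre-heartbeat replicate 1 (difference -0.67) and without post-heartbeat replicate 3 (difference -0.61), and the number was 0 under the other alternatives run for it. The median difference ran from -0.0068 to 0.046 with 1 array left out. It was -0.016 after normexp correction, -0.0028 after quantile normalization and -0.013 in the authors' ratios. The median level of the carriers on an array had an SD of 0.07 within groups. That level did not overlap, at -0.89, -1.04 and -0.89 on the pre-heartbeat and -0.70, -0.69 and -0.80 on the post-heartbeat arrays. Their mean level overlapped, at -0.85, -0.89 and -0.87 before against -0.83, -0.80 and -0.86 after. The median level rests on the carriers in the middle of the ranking, and neither level is given here for all genes.

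Of 374 comparisons of the 22 carriers named by rule with their own reported values, 345 kept their sign and 29 changed it, all in carriers with reported differences between -0.14 and 0.35, and 0 passed the threshold. With the slide as a block the values that changed sign were 0.037 for Slc25a13, 0.0062 for Slc25a17, -0.0029 for Slc25a28, 0.022 for Slc25a36 and -0.035 for Slc25a37, and among the other tested carriers -0.02 for Slc25a29, 0.077 for Slc25a32 and -0.0058 for Slc25a44, 8 of 34 in all. After normexp they were -0.0027 for Slc25a3 and -0.048 for Slc25a37, after quantile normalization -0.025 for Slc25a37, with the percentile taken over clearly detected probes -0.00038 for Slc25a3, and in the ratios -0.015 for Slc25a3 and -0.011 for Slc25a37. With each array left out in turn, Slc25a3 ran from -0.040 to 0.090, Slc25a5 from -0.071 to 0.24, Slc25a13 from -0.15 to 0.044, Slc25a17 from -0.058 to 0.048, Slc25a22 from -0.051 to 0.67, Slc25a23 from -0.25 to 0.015, Slc25a25 from -0.11 to 0.066, Slc25a28 from -0.044 to 0.089, Slc25a36 from -0.11 to 0.039 and Slc25a37 from -0.042 to 0.054. The negative value of Slc25a22 was that without pre-heartbeat replicate 2. The cause of these changes was not tested.

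Deviations from the group means correlated at 0.68, -0.31 and 0.54 between same-numbered arrays, the positive values being those on a shared slide. Differently numbered arrays on a shared slide gave 0.55 and 0.52, so these values cannot tell a pairing by replicate number from the slide. With the replicate block 0 carriers were called, the median was 0.0054 and 0 met the study's thresholds, while all probes called went from 24 higher and 4 lower to 110 and 56. With 1 array left out, 0 or 1 probe in all was called higher and 0 or 1 lower. The small number of arrays and, for 7 carriers, signals near background limit what can be seen.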
